A study of Mus musculus with 6 samples.

Results

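Genes of myelin and of the oligodendrocyte lineage, 9 in all, were read in cerebellar tissue of STIM1 knockout and wild type mice: Mbp, Mobp, Mag, Mog, Cnp, Trf, Cldn11, Gpr17 and Olig1. They were chosen by name, and all 9 were found among the 24421 gene rows counted in each library. The samples were 3 libraries of STIM1 knockout (KO) mice and 3 libraries of wild type (WT) mice, all 1 year old. STIM1 is the calcium sensor of the endoplasmic reticulum that opens Orai channels when the calcium store empties. Total RNA came from the Purkinje neuron layer, microdissected together with the molecular layer, so the tissue labelled Purkinje cells holds other cell types of both layers too. The sources used here do not give the cells in which Stim1 was removed, the strain or the sex of the animals.

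Oligodendrocytes wrap axons in a compacted membrane, the myelin sheath, which insulates the axon and speeds conduction. In the cerebellum most myelin lies in the white matter core and around axons that cross the granule layer, while the molecular layer holds little. Precursor cells divide and pass through a short premyelinating stage, marked by Gpr17, before they switch on the genes of the sheath. The transcript of Mbp is among the abundant messages of white matter, so its level in a dissected layer is often read for myelinated tissue taken along with it. In bulk tissue, fewer oligodendrocytes and less RNA in each of them cannot be told apart.

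The libraries held 645994 to 764839 counts in genes, which was 1.16% to 1.23% of the uniquely aligned reads, and a tested gene had a median of 24 to 31 counts. Levels are given as CPM, counts per 1000000 gene counts, scaled with the TMM factors of edgeR, on which a count of 3 stood for 3.80 to 4.77 CPM. Stim1 had 4, 3 and 2 counts in KO replicates 1 to 3 and 7, 21 and 3 counts in WT replicates 1 to 3. The 8 Purkinje cell markers summed to between 1941 and 2597 CPM in KO libraries and between 2653 and 3283 CPM in WT libraries, so these genes had counts in all 6 libraries. Of their 10742 counts, 6116 were of Itpr1. Which strand was counted is not given in the sources used here. Tsix, transcribed opposite to Xist, exceeded Xist by 22.0 to 37.8 times in 4 libraries. Counts printed here may therefore include, or mostly be, RNA from the other strand of a gene. The part of such RNA in the values of the myelin genes was not tested. The remaining pair, KO replicate 3 and WT replicate 3, held 14 and 28 counts of Y-linked genes, of which the 4 had none. Tsix had 1 and 2 counts in this pair, against 2987 to 3265 in the 4. Any difference tied to sex would thus follow replicate number, though no label gives the sex.

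All 9 genes together took up very few counts. They summed to 143, 87 and 107 counts in KO replicates 1 to 3, against 97, 109 and 126 counts in WT replicates 1 to 3. That was 0.0187%, 0.0126% and 0.0162% of the gene counts in KO and 0.0150%, 0.0165% and 0.0179% in WT, with Wilson 95% intervals that span 0.0102% to 0.0220% over the 6 libraries and cover counting error only. The summed level averaged 160.4 ± 26.8 CPM in KO and 162.3 ± 16.6 CPM in WT (SD, n = 3 each), a log2 ratio of -0.017. KO replicate 1 was the highest library and KO replicate 2 the lowest, so the WT libraries lay within the range of the KO libraries.

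Per kilobase of exon, Trf, Cnp and Gpr17 had the highest levels of the 9 and Mag and Mobp the lowest. Mean levels over the 6 libraries were 9.95 ± 2.98 CPM per kb for Trf, 9.29 ± 3.20 for Cnp, 8.21 ± 1.57 for Gpr17, 4.45 ± 3.01 for Mog, 3.59 ± 0.797 for Mbp, 1.96 ± 1.26 for Olig1, 1.37 ± 1.25 for Cldn11, 0.695 ± 0.318 for Mag and 0.626 ± 0.513 for Mobp (SD, n = 6). The ranges over libraries overlapped in all 8 neighbouring pairs of this order. The median over the 15859 genes with a count and an annotated length was 1.43 CPM per kb, so 3 of the genes, Cldn11, Mag and Mobp, lay below it. For Mbp, 69.0% of those genes had a lower level, and for Mobp 32.5%. Lengths are the union of exons in GENCODE M21, which may differ from the models the authors counted. As the strand counted is not given, these levels may be partly or mostly of RNA other than the messages named.

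**Figure D1:**
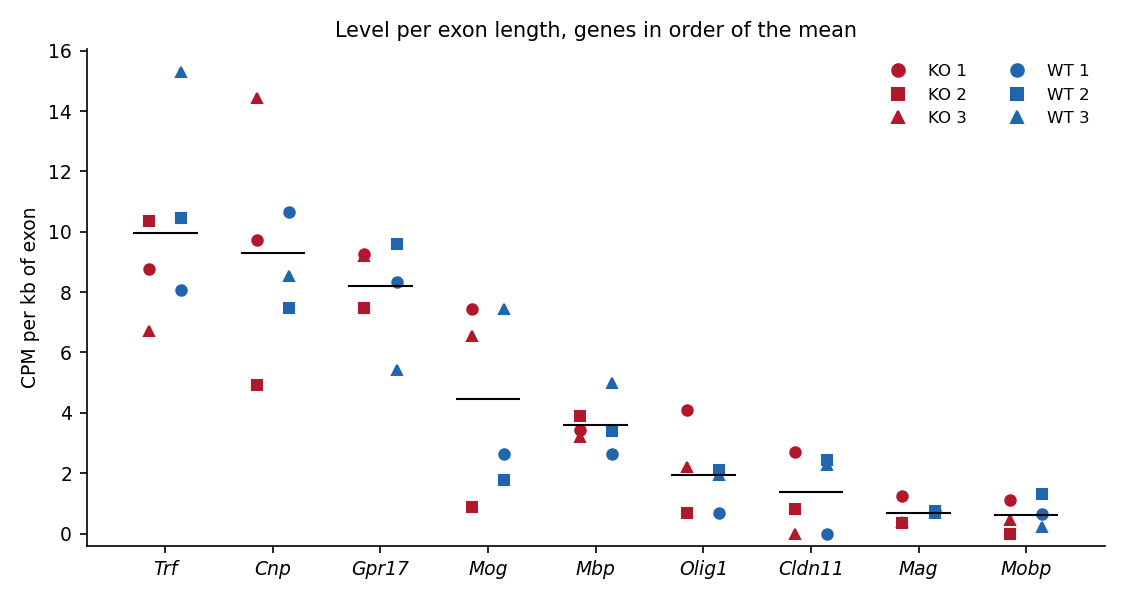
Level of each gene in CPM per kilobase of exon (y axis) in each library, with KO in red left of WT in blue, symbols for replicates 1 to 3 and a black line at the mean over 6 libraries. Trf, Cnp and Gpr17 average 8.21 to 9.95 CPM per kb, and no library of Mag or Mobp exceeds 1.32 CPM per kb.

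Among the proteins of the compact sheath, Mbp alone was deep enough to be tested. Mbp (chromosome 18, 82475146 to 82585637, plus strand, GRCm38) encodes myelin basic protein, which holds the inner faces of the myelin membrane together. It had 23, 22 and 17 counts in KO replicates 1 to 3, against 15, 19 and 30 counts in WT replicates 1 to 3. WT replicate 3 was the highest library and WT replicate 1 the lowest, and all 3 KO libraries lay between them. Mbp averaged 29.7 ± 2.97 CPM in KO and 31.1 ± 10.2 CPM in WT (SD, n = 3 each). Mobp (chromosome 9, 120149707 to 120181484, plus strand), a small basic protein of central myelin, had 6, 0 and 2 counts in KO and 3, 6 and 1 counts in WT, so each genotype held a library with 6 counts and a library with at most 1. Cldn11 (chromosome 3, 31149920 to 31164324, plus strand) encodes the claudin of the tight junctions between myelin layers. It had 4, 1 and 0 counts in KO and 0, 3 and 3 counts in WT, and 1 library of each genotype had none.

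Of the proteins at the inner and outer borders of the sheath, Cnp could be tested, and Mag and Mog could not. Cnp (chromosome 11, 100574904 to 100591729, plus strand) encodes a phosphodiesterase of the uncompacted cytoplasmic channels. It had 28, 12 and 33 counts in KO replicates 1 to 3, against 26, 18 and 22 counts in WT replicates 1 to 3. KO replicate 3 was the highest library and KO replicate 2 the lowest, with all WT libraries between them. Cnp averaged 35.3 ± 17.3 CPM in KO and 32.3 ± 5.88 CPM in WT (SD, n = 3 each). Mag (chromosome 7, 30899176 to 30914873, minus strand), an adhesion protein on the membrane that faces the axon, had 4, 1 and 1 counts in KO and 2 counts in each WT library. Mog (chromosome 17, 37010743 to 37023398, minus strand), a protein of the outermost myelin surface, had 10, 1 and 7 counts in KO and 3, 2 and 9 counts in WT. Both genotypes therefore held a library with 1 or 2 counts of Mog and a library with 9 or 10.

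Trf, Gpr17 and Olig1 mark the cells rather than the sheath. Trf (chromosome 9, 103204001 to 103230444, minus strand) encodes transferrin, the iron carrier that oligodendrocytes and choroid plexus make in the brain. It had 23, 23 and 14 counts in KO replicates 1 to 3, against 18, 23 and 36 counts in WT replicates 1 to 3. As for Mbp, WT replicate 3 was the highest library, while the lowest was KO replicate 3. Trf averaged 28.6 ± 6.08 CPM in KO and 37.4 ± 12.2 CPM in WT (SD, n = 3 each). The 4 choroid plexus markers summed to 4.77 to 8.97 CPM in KO and 6.05 to 16.4 CPM in WT. Of their 40 counts 25 were of Kcnj13, with 4, 3 and 2 in KO and 5, 2 and 9 in WT. Kl had 0, 3 and 1 counts in KO and 4, 2 and 0 in WT. Ttr had 2, 0 and 0 counts in KO and 2, 0 and 1 in WT, and Folr1 was at 0 in every library. The part of choroid plexus in the level of Trf was not tested. Gpr17 (chromosome 18, 31942997 to 31949636, minus strand), the receptor of the premyelinating stage, had the most counts of the 9 genes. It had 38, 26 and 30 counts in KO and 29, 33 and 20 counts in WT. WT replicate 3, the highest library for Mbp and Trf, was the lowest for Gpr17, and WT replicate 2 was the highest. Gpr17 averaged 44.9 ± 5.21 CPM in KO and 40.4 ± 11.1 CPM in WT (SD, n = 3 each). Olig1 (chromosome 16, 91269772 to 91271933, plus strand), a transcription factor of the lineage, had 7, 1 and 3 counts in KO and 1, 3 and 3 counts in WT.

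**Figure D2:**
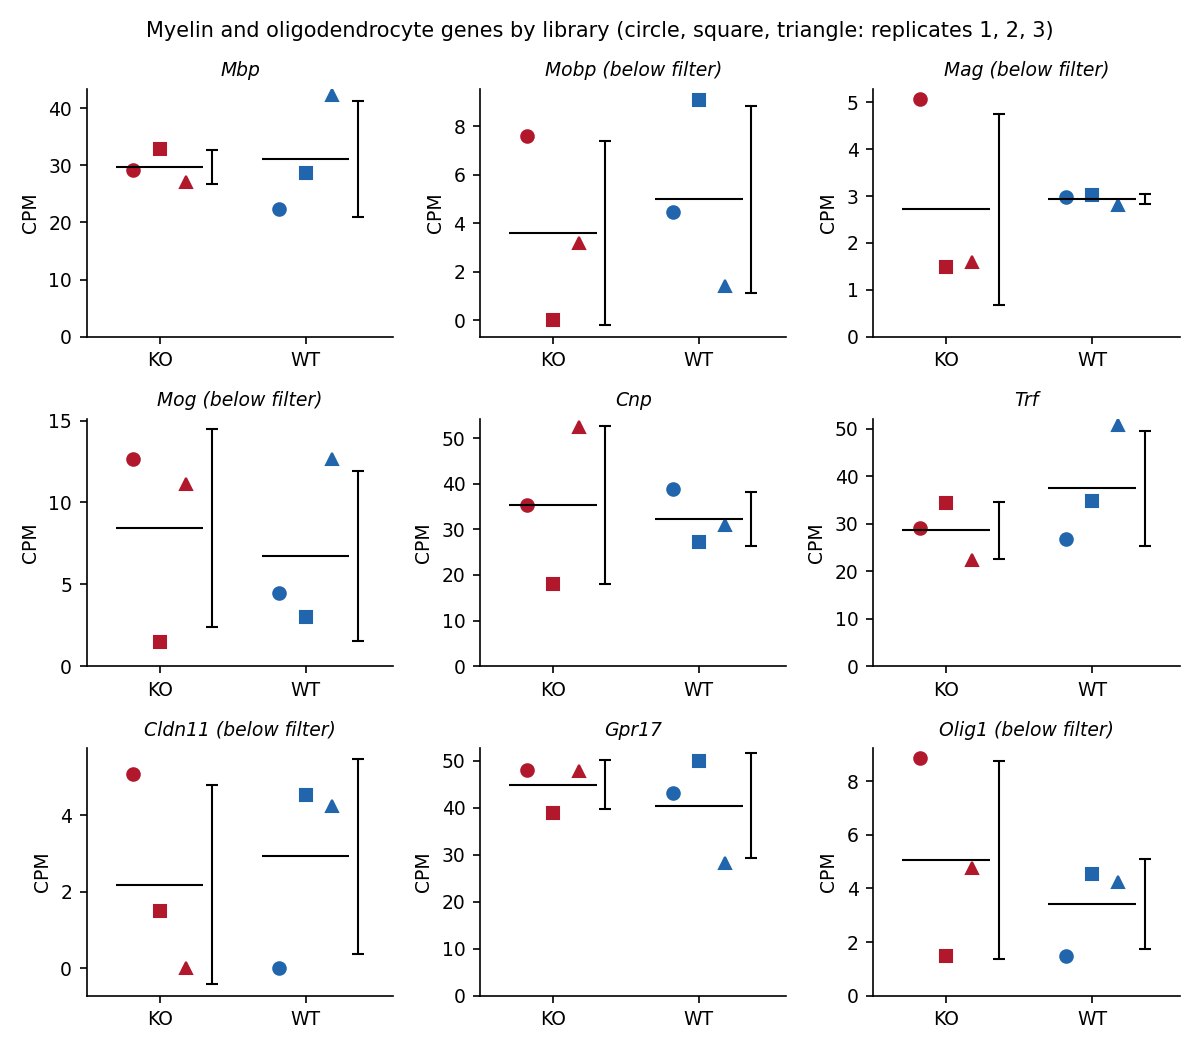
Level of each of the 9 genes in CPM (y axis, own scale per panel) in the 3 KO libraries (red, left) and the 3 WT libraries (blue, right), with a line at the mean and a bar of ± 1 SD. The groups overlap in all 9 panels, and WT replicate 3 (blue triangle) is the highest library for Mbp and Trf and the lowest for Gpr17.

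No member of the group passed the comparison of KO with WT. In edgeR's quasi-likelihood test none of the 4 tested genes (0 of 4) had a Benjamini-Hochberg adjusted p under 0.05 in either direction, where 0% of all 5320 tested genes passed, and DESeq2 and limma-voom also called 0 of them. At an unadjusted p under 0.05 there were 0 of the 4 in either direction, against 4.62% of all tested genes (1.58% higher and 3.05% lower in KO). Groups that did not overlap were seen for 0 of the 4, against 10.7% of the tested genes. They were also seen for 0 of the 5 genes below the filter. The share over untested genes is not given here, so that count is a description only. The log2 fold changes were -0.39 for Trf (SE 0.30, edgeR adjusted p 0.987), 0.15 for Gpr17 (SE 0.27, adjusted p 0.997), 0.11 for Cnp (SE 0.33, adjusted p 0.997) and -0.078 for Mbp (SE 0.30, adjusted p 0.997). Their median was 0.018, and the median of all tested genes 0.0019. The 95% intervals ran from -1.02 to 0.24 for Trf, from -0.41 to 0.72 for Gpr17, from -0.59 to 0.81 for Cnp and from -0.70 to 0.55 for Mbp. True changes within these limits are compatible with the data. With KO replicate 3 and WT replicate 3, which held Y-linked counts, left out together, all 4 fold changes had the other sign, at 0.028 for Trf, -0.10 for Gpr17, -0.29 for Cnp and 0.26 for Mbp. The other pair, 1 library of each genotype, gives no test.

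The 5 genes with too few counts for that fit were compared by an exact two-sided permutation test of CPM, in which 3 libraries against 3 cannot go below p = 0.1. Olig1 averaged 5.04 ± 3.69 CPM in KO and 3.42 ± 1.68 CPM in WT (exact permutation p = 0.4). Mobp averaged 3.59 ± 3.81 CPM in KO and 4.98 ± 3.86 CPM in WT (exact permutation p = 0.7). Mog averaged 8.43 ± 6.05 CPM in KO and 6.73 ± 5.21 CPM in WT, Cldn11 2.19 ± 2.60 CPM in KO and 2.92 ± 2.53 CPM in WT, and Mag 2.72 ± 2.03 CPM in KO and 2.94 ± 0.108 CPM in WT, each with an exact permutation p of 1 (SD, n = 3 each for all 5). The difference of means was smaller than the SD of at least 1 group for all 5.

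**Figure D3:**
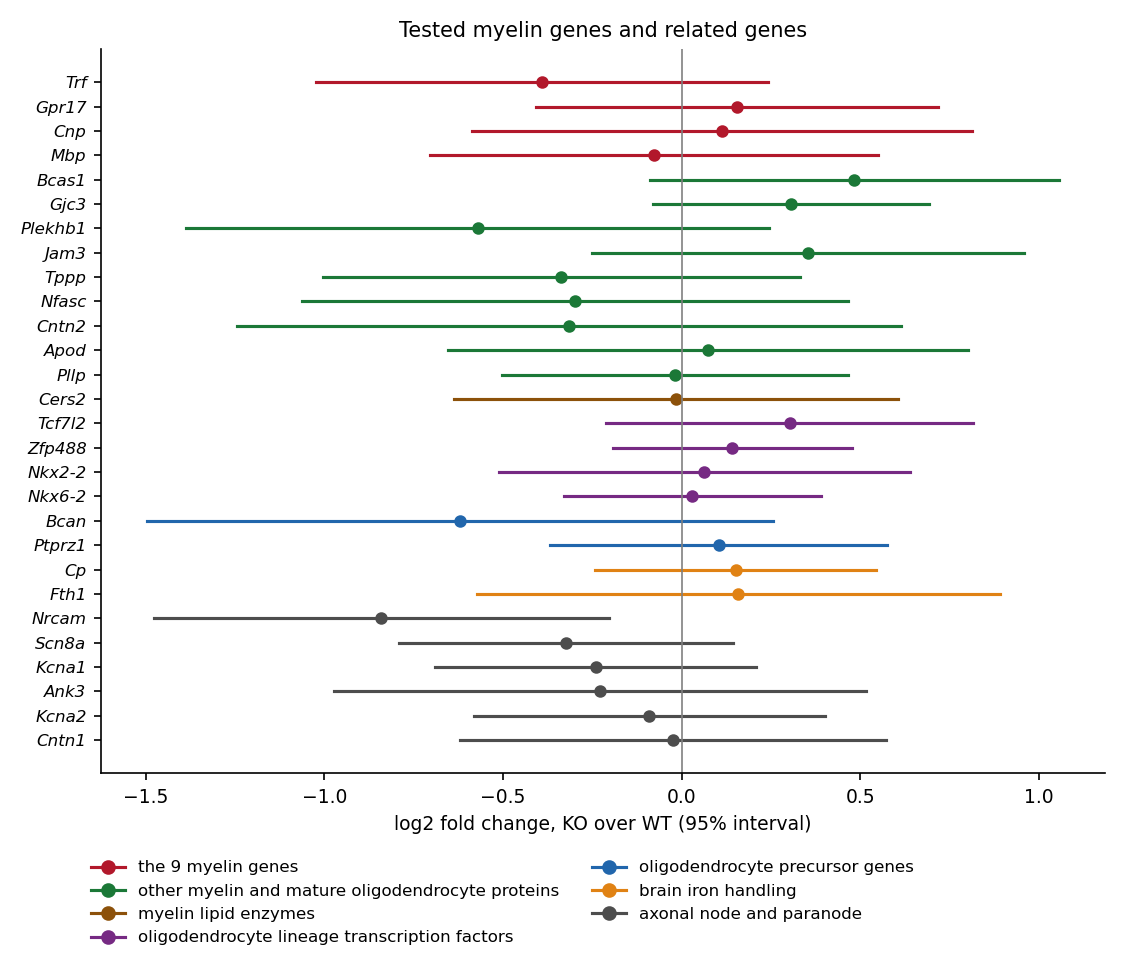
Log2 fold change of KO over WT (x axis) with its 95% interval for the 4 tested genes of the group (red) and for tested genes of 6 related lists, from edgeR's fit over all tested genes. Every plotted interval but that of Nrcam spans 0, and no gene passed after adjustment.

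The spread between libraries differed among the genes. With counting error alone, the CPM of Mbp would vary with a coefficient of variation (CV) of about 21.8% and that of Gpr17 of about 18.5%, and the observed CVs over the 6 libraries were 22.2% and 19.1%. Cnp (34.5%, counting error 20.8%) and Trf (29.9%, counting error 20.9%) varied more. The sum of squared deviations from equal levels, divided by its expectation under counting error, was 1.04 for Mbp, 1.09 for Gpr17, 2.03 for Trf and 2.62 for Cnp, where the median of all tested genes was 1.58. By the same measure Mog stood at 2.37, Mobp at 1.96, Cldn11 at 1.41, Olig1 at 1.25 and Mag at 0.421. The highest library of Cnp held 2.92 times the level of the lowest, that of Trf 2.28 times, that of Mbp 1.89 times and that of Gpr17 1.77 times, against a median of 1.80 times for all tested genes. The spread lay in different groups, with a CV within KO of 48.9% for Cnp and 11.6% for Gpr17, and within WT of 18.2% for Cnp and 27.5% for Gpr17. Single libraries carried much of this: the variation relative to counting error was 0.350 for Mbp, 0.611 for Trf and 0.295 for Gpr17 without WT replicate 3. For Cnp it was 1.66 without KO replicate 2, when its range was 1.93-fold, and 1.47 without KO replicate 3. For Mag it was 0.163 and for Olig1 0.558 without KO replicate 1. No test was made of these spreads.

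**Figure D4:**
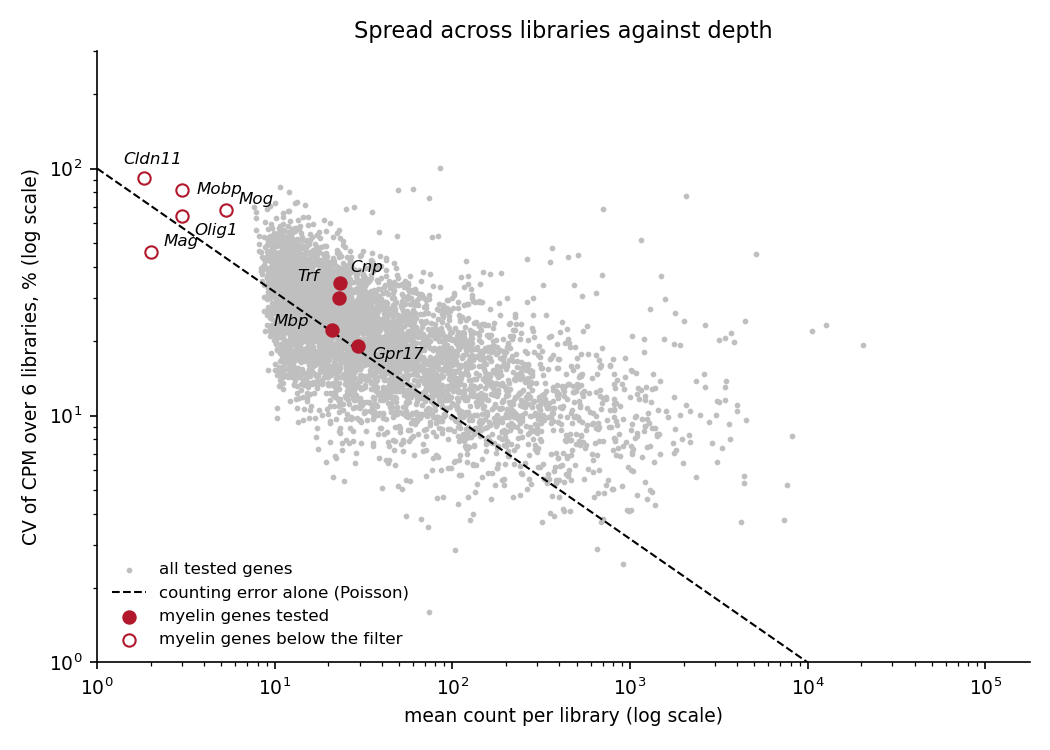
CV of CPM over the 6 libraries (y axis, log scale, %) against the mean count per library (x axis, log scale) for all 5320 tested genes (grey), the 4 tested myelin genes (filled red) and the 5 below the filter (open red), with the CV that counting error alone gives as a dashed line. Mbp and Gpr17 lie close to the line, Cnp and Trf above it, and of the 9 genes Mag alone lies below it.

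Of the 9 genes, the 4 that passed the count filter had a steadier sum over libraries than the 5 that did not. The 4 tested genes summed to 112, 83 and 94 counts in KO replicates 1 to 3, against 88, 93 and 108 in WT replicates 1 to 3, with a highest library 1.23 times the lowest and a variation of 0.552 relative to counting error. Gpr17 was low where Mbp and Trf were high in WT replicate 3, and Cnp was high where Trf was low in KO replicate 3. The CV of their sum was 7.65%, below that of each of the 4. The 5 genes below the filter summed to 31, 4 and 13 counts in KO replicates 1 to 3, against 9, 16 and 18 in WT replicates 1 to 3. That was 39.2, 5.98 and 20.7 CPM in KO and 13.4, 24.2 and 25.4 CPM in WT, a 6.56-fold range and 4.25 times the variation that counting error gives. Without KO replicate 2 the range of these 5 was 2.93-fold and the variation 2.61 times counting error, and without KO replicate 1 they were 4.24-fold and 2.49 times. The variation of the 4 tested genes was 0.326 without KO replicate 2. KO replicate 1 was the highest library for Mag, Cldn11 and Olig1, and KO replicate 2 the lowest for Mobp, Mag, Mog and Cnp.

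Summed levels of markers of other cell types are set beside these values. The 5 endothelial and pericyte markers summed to 21.5, 5.98 and 15.9 CPM in KO replicates 1 to 3, against 14.9, 18.1 and 9.87 CPM in WT replicates 1 to 3, with KO replicate 1 again the highest and KO replicate 2 the lowest. The 5 meningeal markers summed to 62.0, 29.9 and 28.6 CPM in KO and 14.9, 42.3 and 39.5 CPM in WT, most of it from Ptgds, which oligodendrocytes also express, and with Col1a1 at 0 throughout. The 11 granule cell markers, the layer between the dissected tissue and the white matter, summed to 963, 939 and 908 CPM in KO and 832, 898 and 920 CPM in WT, a 1.16-fold range. The 4 genes listed for deep nuclei neurons summed to 870 to 1363 CPM in KO and 1000 to 1329 CPM in WT, but 4821 of their 4830 counts were of the neurofilament genes Nefh, Nefl and Nefm, which Purkinje and other neurons also express, and 9 were of Spp1. The 9 astrocyte and Bergmann glia markers summed to 698 to 859 CPM in KO and 936 to 1109 CPM in WT. These sums did not overlap between the groups. Taken singly, 1 of the 9 markers had no overlap, lower in KO (11.1%, against 10.7% of tested genes). At an unadjusted edgeR p under 0.05, 3 of the 9 were lower in KO, against 3.05% of all tested genes, and 0 were higher. The log2 fold change was negative for 7 and positive for 2, with a median of -0.31, and 0 passed after adjustment. The 8 microglia markers summed to 165 to 185 CPM in KO and 154 to 196 CPM in WT, and the 4 molecular layer interneuron markers to 263 to 315 CPM in KO and 295 to 335 CPM in WT. Of the peripheral myelin markers Pmp2 was at 0 in every library, and all 5 summed to 4.77 to 19.4 CPM in KO and 15.1 to 25.3 CPM in WT. White matter taken along in the dissection, or other tissue, was not measured apart from these markers, and its part in the spread of the myelin genes was not tested.

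**Figure D5:**
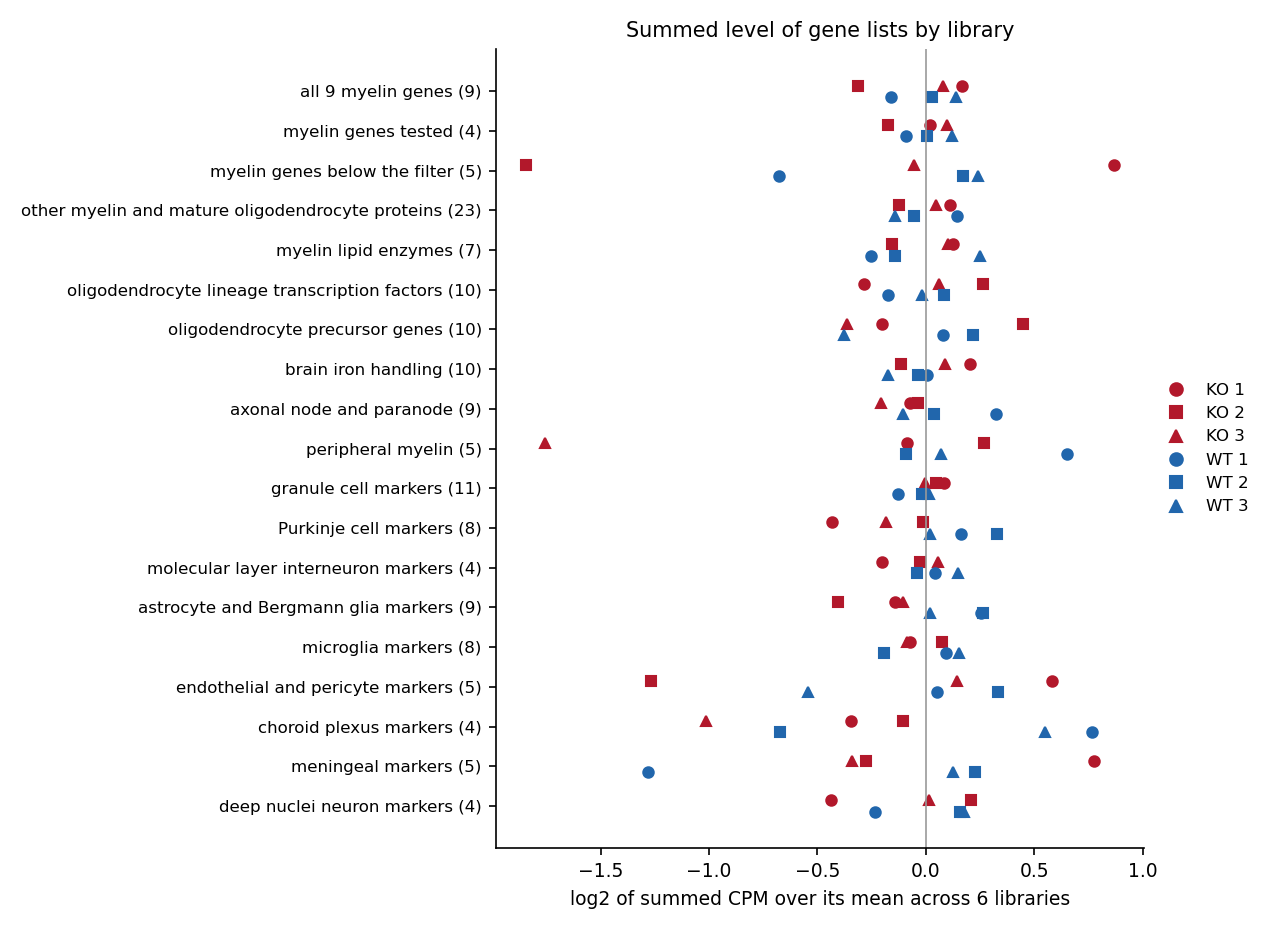
Summed CPM of each gene list (number of genes in brackets) in each library, as the log2 of its ratio to the mean of the 6 libraries (x axis), with KO in red above WT in blue and symbols for replicates 1 to 3. The 5 myelin genes below the filter spread widely, with KO replicate 2 lowest and KO replicate 1 highest, while the 4 tested ones stay near 0.

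No gene related to these passed the comparison of KO with WT. Of 69 genes in 6 lists of myelin, lineage, iron and axonal node genes, 25 were tested, 11 with a positive and 14 with a negative log2 fold change, and 0 passed in edgeR. Of them 1, Nrcam, was at an unadjusted p under 0.05, where 4.62% of all tested genes were. Among 23 other myelin and mature oligodendrocyte proteins 10 were tested, with a median log2 fold change of -0.030. Opalin and Aspa, genes of mature oligodendrocytes, had 0 counts in all libraries. Lowest in p of this list were Bcas1 and Gjc3. Bcas1, expressed as oligodendrocytes begin to myelinate, averaged 40.4 ± 7.02 CPM in KO and 28.9 ± 4.36 CPM in WT (log2 fold change 0.48, SE 0.27, edgeR adjusted p 0.987). Gjc3, a glial connexin, averaged 121.4 ± 12.2 CPM in KO and 97.8 ± 10.1 CPM in WT (log2 fold change 0.31, SE 0.18, edgeR adjusted p 0.987). In these 2 genes every KO library lay above every WT library, which 10.7% of tested genes matched in either direction, and for Gjc3 the groups overlapped when libraries were scaled to the plain sum of gene counts or to all uniquely aligned reads. In the same list 2 genes too low to be tested, Qdpr and Sirt2, lay lower in every KO library than in every WT library under all 5 scalings (TMM, RLE, upper quartile, no factors and uniquely aligned reads), and are named after their values were seen. Qdpr, an enzyme of biopterin recycling, had 3, 2 and 5 counts in KO and 11, 12 and 6 counts in WT, and Sirt2, a deacetylase of the sheath, had 6, 3 and 6 counts in KO and 7, 12 and 10 counts in WT. Over all 69 genes of the 6 lists, tested or not, the groups did not overlap for 3 that were higher and 5 that were lower in KO. Among the 25 tested ones these were 2 higher and 2 lower, where 10.7% of all tested genes had no overlap. The share over all genes, tested or not, is not given here, so the counts that include untested genes are a description only. On the other strand Bcas1 shares 440 bases of exon with Bcas1os1, for which no count is used here, and 34 bases with Bcas1os2, which had 91, 72 and 62 counts in KO and 47, 52 and 62 counts in WT.

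The transcription factors of the lineage differed widely in level. Tcf7l2 stood at 6.80 and Nkx2-2 at 24.8 CPM per kb, as means of 6 libraries. Sox10 and Myrf, which drive the myelin genes, had at most 3 counts in any library, and Olig2 at most 4. Nkx6-2, a homeodomain factor of the lineage, had 2876, 4334 and 3178 counts in KO replicates 1 to 3, against 2760, 3768 and 3546 in WT replicates 1 to 3. Per length it stood at 2621 CPM per kb, the mean of 6 libraries. Zfp488, a zinc finger protein that works with Olig2, had 1242, 785 and 977 counts in KO and 1045, 681 and 920 in WT, or 317 CPM per kb. Within each genotype their order over libraries was opposite, with replicate 2 of each genotype the highest for Nkx6-2 and the lowest for Zfp488. Nkx6-2 shares 246 bases of exon with Inpp5a on the other strand, which had 36 to 46 counts in KO and 36 to 52 in WT, and Zfp488 shares none with an annotated gene. As the strand counted is not given, the counts of both may include other RNA than the message of the factor, annotated or not. Its part in these levels was not tested. All 4 tested factors of the 10 had a positive log2 fold change with a median of 0.10, the 2 of lowest p being Tcf7l2 at 0.30 (SE 0.24) and Zfp488 at 0.14 (SE 0.16), with edgeR adjusted p of 0.987 and 0.997.

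In the remaining lists values were as follows. Of 10 genes of precursor cells 2 were tested, Bcan at -0.62 (SE 0.42) and Ptprz1, a receptor phosphatase also made by astroglia, at 0.10 (SE 0.22). Pdgfra and Cspg4, which define precursors, had at most 3 counts in any library. Cers2, the ceramide synthase for the very long chains of myelin lipids, was the 1 tested of 7 lipid enzymes, at -0.016 (SE 0.30). Of 10 genes of iron handling, a partner role to that of Trf, Cp (ceruloplasmin) stood at 0.15 (SE 0.19) and Fth1 (ferritin heavy chain) at 0.16 (SE 0.35). All 6 tested genes of the axonal node and paranode, the neuronal side of the myelinated axon, had a negative log2 fold change, with a median of -0.23 and 0 called. Nrcam, an adhesion molecule of the node, had 20.3, 29.9 and 19.1 CPM in KO and 46.2, 48.4 and 29.6 CPM in WT, an overlap of KO replicate 2 with WT replicate 3 that was not seen with no factors or with uniquely aligned reads. It stood at -0.84 (SE 0.30, edgeR adjusted p 0.987) and the sodium channel Scn8a at -0.32 (SE 0.22, edgeR adjusted p 0.987). For Scn8a, at 47.8 ± 1.62 CPM in KO and 59.8 ± 2.10 CPM in WT, and for the potassium channel Kcna1, at 58.3 ± 4.62 CPM in KO and 68.5 ± 5.42 CPM in WT (SD, n = 3 each), the KO values were all below the WT values under the same 5 scalings, against 10.7% of tested genes without overlap in either direction. These genes are expressed by the neurons of the tissue. The 8 Purkinje markers summed to 2281 ± 329 CPM in KO and 2957 ± 316 CPM in WT (SD, n = 3 each). Of their 10742 counts, 6116 were of Itpr1, at a log2 fold change of -0.47 (SE 0.14). The fold change was negative for 6 of the 8 and positive for 2, Pcp2 at 0.24 (SE 0.20) and Ppp1r17 at 0.014 (SE 0.29), with 0 called. The part of Purkinje cell content in the node genes was not tested.

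In GENCODE M21, 3 of the 9 genes overlap an exon of an opposite-strand gene. Cnp shares 154 bases with Dnajc7, a chaperone gene that had 97, 87 and 87 counts in KO and 93, 103 and 99 counts in WT. Gpr17 lies within Lims2 and shares 188 bases with it, and Lims2 had 48, 23 and 53 counts in KO replicates 1 to 3, against 17, 27 and 44 in WT replicates 1 to 3. Olig1 shares 157 bases with Gm15966, a noncoding gene for which no count is used here. Trf also shares 2108 bases on its own strand with Gm20425. Summed without Cnp, Gpr17 and Olig1, the other 6 genes stood at 75.2 CPM in KO and 86.1 CPM in WT, a log2 ratio of -0.20, with a CV over libraries of 24.1% in place of 12.4% for all 9.

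The genes whose levels over the 6 libraries were most like the mean of the 4 tested genes were Zdhhc20, Ufsp2, Plekhd1, Rnf10 and Mbtps2. Their Pearson correlations with that mean were 0.989, 0.987, 0.984, 0.979 and 0.978 over 6 libraries, given as a description, since 38 of 4840 candidate genes exceeded 0.9. The mean profile was itself nearly flat, from -0.16 in KO replicate 2 to 0.12 in WT replicate 3 on the log2 scale, and none of the 5 is a marker in the lists used here.

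Of the 9 genes, 0 had a p under 0.05 in the authors' deposited tables. The share of all genes under 0.05 there was not computed here, so this count is a description only. In the authors' deposited DESeq table the fold of KO over WT was 0.777 for Trf with p = 0.325, 0.970 for Mbp with p = 0.927, 1.11 for Cnp with p = 0.795 and 1.13 for Gpr17 with p = 0.548. It was 1.49 for Olig1, 1.27 for Mog, 0.936 for Mag, 0.754 for Cldn11 and 0.729 for Mobp in the authors' deposited DESeq table. In the authors' deposited edgeR table, whose log2 ratios run WT over KO, Trf stood at 0.37 with p = 0.259 and Olig1 at -0.59 with p = 0.529, the lowest and the second lowest p of the 9.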

How the data were processed

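The authors deposited 1 file of whole-number gene counts for each library; TopHat, HTSeq 0.9.1, DESeq, edgeR and GRCm38 (mm10) are named in the submitters' processing notes, and strand setting and annotation are not stated in any source read here. The 5 HTSeq rows of no gene (on average 98.8% of uniquely aligned reads were in no gene) were left out. Per the file headers, the authors' deposited DESeq table gives normalised mean signal, a fold ratio of KO to WT and its p-value. The edgeR table the authors deposited holds log2 ratios of WT to KO, also with a p-value.

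All 6 libraries were fitted with edgeR 4.0.16 in R 4.3.3 (quasi-likelihood, TMM factors 0.954 to 1.04, filterByExpr with a minimum count of 10, Benjamini-Hochberg adjustment over 5320 genes, adjusted p under 0.05) and checked on simulated data. Standard errors are those implied by the F statistic. CPM uses TMM-scaled sums of gene counts; correlations used log2 CPM with a prior count of 2. Alternatives used limma 3.58.1 and DESeq2 1.42.0. Replicates are called biological in the series text. Gene positions are those of GENCODE M21 (GRCm38), to which 95.5% of the symbols could be matched once. The 9 genes and all lists were chosen with earlier results of these data known. Named genes are the 9, the 2 of lowest p per list, the 5 most alike in profile and opposite-strand neighbours; Nkx6-2, Nkx2-2, Kcna1 and genes given by counts alone were added after their values were seen. One listed gene, Epb41l3, was not analysed here, and single values of some listed genes are not reported here.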

Additional observations from a re-analysis of the deposited data

Results flagged for a closer look

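Few reads entered the gene counts. A mean of 98.8% of the uniquely aligned reads was assigned to no gene, and the myelin genes are read from the remainder alone.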

How the results depend on the processing

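No gene (0) was called with RLE, upper quartile or no factors, when libraries were scaled by uniquely aligned reads, or with DESeq2, limma-voom, a CPM filter or the replicate block. The count was 6 with no filter on low counts, 1 without both libraries with Y-linked counts, a setting chosen after the data were examined, and 0 to 1 leaving out each library, and 0 of the 9 myelin genes were among them in any setting. The share of genes with an unadjusted p under 0.05 that were higher in KO was 34.1%, and 17.5% when scaled by uniquely aligned reads, 21.3% with no factors and 42.8% with no filter; their number was 246, and 96 with DESeq2 and 638 with no filter.

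Directions of single genes depended on the libraries. Leaving out each library, the log2 fold change ranged from -0.27 to 0.21 for Mbp, -0.26 to 0.41 for Cnp, -0.58 to -0.11 for Trf and -0.061 to 0.33 for Gpr17; the signs of Mbp and Gpr17 turned without WT replicate 3 and that of Cnp without KO replicate 3. Without both libraries with Y-linked counts it was 0.26 for Mbp, -0.29 for Cnp, 0.028 for Trf and -0.10 for Gpr17. The difference in mean CPM, KO minus WT, ranged leaving out each library from -3.38 to 0.657 for Mobp, -1.39 to 0.368 for Mag, -0.419 to 5.15 for Mog, -2.20 to 0.347 for Cldn11 and -0.288 to 3.39 for Olig1. Of these 5 genes 0 had groups that did not overlap, and 0 to 1 leaving out each library.

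The log2 ratio of the sum stayed within 1 SD in the 21 alternatives. It ran from -0.11 to 0.11 in the 11 that sum all 9 genes and from -0.077 to 0.079 in the 9 that leave out 1 gene, and was -0.20 for the 6 genes with no opposite-strand exon. The CV of the sum of all 9 over libraries was 12.4%, from 8.39% (without KO replicate 2) to 13.9% leaving out each library, and 24.1% for those 6 genes, a setting chosen after the data were examined. The cause was not tested.

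The replicate block, with the replicate number as a term, gave log2 fold changes of -0.051 for Mbp, 0.087 for Cnp, -0.37 for Trf and 0.16 for Gpr17 and called 0 genes. The labels name no pairing, and deviations of equal-numbered libraries correlated across genes at 0.143, 0.0795 and 0.122, each higher than with any other number of the other genotype. Replicate 3 of each genotype was the pair with Y-linked counts, and the cause of these correlations was not tested. At 645994 to 764839 counts per library, 5 of the 9 genes lay near the floor of 3 counts.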
